A study of Mus musculus with 2 samples.

Results

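The 10 genes described here are the immune checkpoint receptors Pdcd1, Ctla4, Lag3, Havcr2 and Tigit, the exhaustion factor Tox, and the ligands Cd274, Pdcd1lg2, Cd80 and Lgals9, out of 32285 genes counted. They were listed by name and known function, and no measured value entered the rule. All 10 were found by symbol in both count tables. They were measured by droplet single-cell RNA sequencing of pancreatic tumours from KPPC mice, a genetically engineered model of pancreatic cancer. Mice were 6 weeks old and received either vehicle or takinib, an inhibitor of the kinase TAK1, at 50 mg/kg, for 14 days. Each treatment is represented by 1 library of dissociated whole tumour. The labels give neither the number of mice behind a library, nor the vehicle, nor the promoter that drives Cre. With 1 library per group no difference could be tested across animals, so each value below compares 2 libraries and not 2 conditions.

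T cells carry inhibitory receptors that are engaged by ligands on tumour and myeloid cells. PD-1 (Pdcd1) binds PD-L1 (Cd274) and PD-L2 (Pdcd1lg2), and CTLA-4 (Ctla4) competes with CD28 for CD80 and CD86. TIM-3 (Havcr2) has been described as a receptor for galectin-9 (Lgals9), LAG-3 (Lag3) binds MHC class II, and TIGIT binds the poliovirus receptor family. Pancreatic tumours are rich in myeloid cells and poor in T cells, and their response to antibodies against PD-1 or CTLA-4 is limited.

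After filtering, 9558 vehicle cells with a median of 3556 unique molecular identifiers (UMIs) and 25183 takinib cells with a median of 2887 UMIs were kept. Cells were clustered without the 10 genes and clusters were named from marker genes. Comparisons were limited to the 6 classes that had 100 or more cells in both the vehicle and the takinib table, namely macrophage-like (4880 vehicle and 7276 takinib cells), dendritic-like (280 and 150), T-like (220 and 1030), B-like (205 and 669), epithelial-like (1166 and 1065) and fibroblast-like cells (662 and 322). Of the neutrophil-like cells, 24 were in the vehicle library and 12358 in the takinib library. The neutrophil RNAs S100a8 and S100a9 rose in every compared class, from 56.9 to 321 counts per 1000000 UMIs of the class (CPM) in vehicle to 3937 to 12790 CPM in takinib. Among vehicle cells 1075 had Xist and no Y-linked UMIs and 3087 had Y-linked UMIs and no Xist, whereas no takinib cell of the second kind was found, and 359 cell barcodes were kept in both libraries. Treatment, sex of the animals, library preparation and the software version that wrote each table cannot be told apart in this design.

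For each class the UMIs of all its cells were summed and expressed as CPM, and a gene was counted as changed when (takinib CPM + 10)/(vehicle CPM + 10) passed 2-fold in either direction. Of the 46 pairs of a member and a class with at least 10 summed counts, 11 were past 2-fold, 7 higher and 4 lower in takinib. In T-like cells 2 members were higher and 2 lower, where 6.75% of all genes with 10 counts passed (4.02% higher and 2.73% lower). In macrophage-like cells 2 members were lower and none higher, against 2.29% of genes (1.38% higher and 0.907% lower). Dendritic-like cells had 2 members higher, against 4.48% of genes (2.16% higher and 2.32% lower). Epithelial-like cells likewise had 2 members higher, against 4.10% of genes (2.33% higher and 1.77% lower). Fibroblast-like cells had 1 member higher, against 6.97% of genes (2.91% higher and 4.06% lower), and B-like cells had none past 2-fold, against 6.67% of genes (3.89% higher and 2.78% lower). Cd274 supplied 4 of the 7 higher pairs. Intervals in square brackets are exact 95% intervals of a count or of a ratio of counts, and they cover counting error within a library only.

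**Figure D1:**
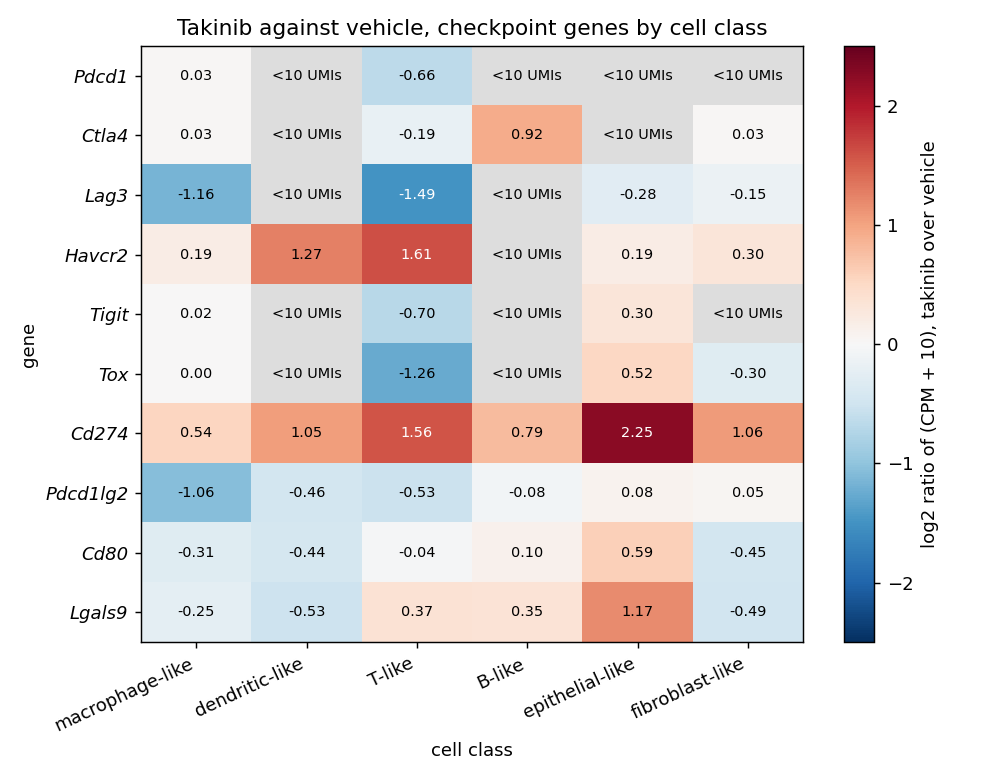
Log2 of (takinib CPM + 10)/(vehicle CPM + 10) for the 10 genes (rows) in the 6 compared cell classes (columns). Cd274 has the highest value, 2.25 in epithelial-like cells, and Lag3 the lowest, −1.49 in T-like cells.

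The receptors were concentrated in T-like cells to different degrees. T-like cells held 73.9% of all Pdcd1 counts in vehicle and 58.2% in takinib, and 67.7% and 55.7% of Ctla4 counts. In contrast, T-like cells held 3.59% of Lag3 counts in vehicle and 11.3% in takinib, and macrophage-like cells 81.8% and 26.6%. T-like cells held none of the Havcr2 counts in vehicle and 2.06% in takinib, and macrophage-like cells 87.0% and 57.8%. Tigit and Tox had their largest shares of counts in epithelial-like cells in both libraries (36.2% and 31.0% for Tigit, 37.3% and 37.0% for Tox), although their level in CPM was highest in T-like cells. In takinib the interval of T-like cells overlapped that of plasma-like cells for Tigit and that of epithelial-like cells for Tox. The T-like class had Cd3d at 657 CPM in vehicle and 646 in takinib and Cd3e at 441 and 410 CPM, and all 12 T cell markers were detected in both libraries. Of the 12, 10 had a lower level in takinib, among them Trbc2 at 564 and 347 CPM, Lck at 348 and 182 CPM, Cd28 at 135 and 66.0 CPM and Cd4 at 177 and 42.3 CPM, and Cd8a and Cd8b1 had a higher one. The makeup of the class thus differed between the libraries, and its part in the values of the members was not tested.

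Pdcd1 (chr1:94038305-94052553, minus strand, GRCm38), which encodes PD-1, stood at 47.7 CPM in vehicle T-like cells (17 counts) and 26.5 CPM in takinib (57 counts). The ratio was 0.555 [0.318, 1.02], an interval that includes no difference. Ctla4 (chr1:60887000-60915832, plus strand), the receptor that binds CD80 and CD86, was at 124 CPM (44 counts) and 107 CPM (230 counts), a ratio of 0.865 [0.624, 1.22]. Neither gene was past 2-fold, and the libraries could not be separated beyond counting error for either.

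Lag3 (chr6:124904361-124911705, minus strand), a receptor for MHC class II, was at 36.5 CPM in vehicle T-like cells from 13 counts and at 6.51 CPM in takinib from 14 counts. It was lower in takinib, with a ratio of 0.178 [0.0777, 0.412]. Tox (chr4:6686353-6991557, minus strand), a nuclear factor that maintains the exhausted state of chronically stimulated T cells, was at 92.7 CPM (33 counts) in vehicle and 33.0 CPM (71 counts) in takinib, a ratio of 0.356 [0.233, 0.556]. Tigit (chr16:43648867-43664146, minus strand) was at 47.7 CPM (17 counts) and 25.6 CPM (55 counts), a ratio of 0.535 [0.306, 0.984] that did not pass 2-fold on the scale used. Havcr2 (chr11:46454935-46481255, plus strand) went the other way, with no UMI in 220 vehicle T-like cells and 44 in takinib, or 20.5 CPM [14.9, 27.5]. That level was 2.43-fold the one that 3 counts would give in vehicle T-like cells. The lower end of the interval of the ratio was 1.89. Across the 6 genes the median log2 ratio was −0.68, against −0.05 for all genes with 10 counts in the class.

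**Figure D2:**
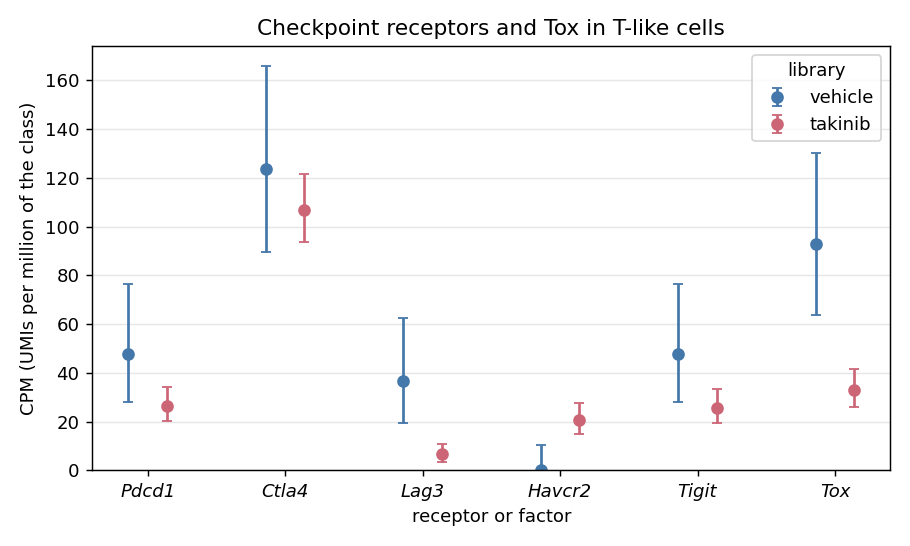
Level in CPM (vertical axis) of the 5 receptors and Tox in T-like cells of the vehicle and takinib libraries, with exact 95% counting intervals as bars. The intervals of Lag3, Tox and Havcr2 are apart between the libraries, and those of Ctla4 overlap.

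RNA of other cells moved with these values. In T-like cells the summed level of 9 neutrophil markers was 286 CPM in vehicle, with 2 of them at 0, and 13589 CPM in takinib, with none at 0. Macrophage markers, 12 in all, were at 2143 and 1445 CPM, and 8 natural killer markers at 138 and 478 CPM. The part of these RNAs in the Havcr2, Lag3 and Tox differences was not tested. When each cell was thinned to 1000 UMIs the Havcr2 log2 ratio was 0.91 in place of 1.61, and the 19 vehicle T-like cells with Xist only held no Lag3 UMI.

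The T-like cells fell into 6 sub-clusters that were almost wholly of 1 library. Sub-cluster 0 held 216 of the 220 vehicle T-like cells with 10 takinib cells and was led by mitochondrial genes. The takinib cells were spread over sub-cluster 1, led by Ccl5, Gzma and Nkg7 (188 cells), sub-cluster 2, led by the endocrine gene Chgb with Tnfrsf4 and Foxp3 among its leading genes (82 cells), sub-cluster 3, led by Ly6c1 and Tcf7 (504 cells), sub-cluster 4, led by Ccl3, Cxcl2 and S100a8 (183 cells), and sub-cluster 5, led by Il17a, Trdv4, Cd163l1 and Trdc (63 cells). Il17a encodes the cytokine IL-17A, and Trdv4 and Trdc belong to the delta chain of the gamma-delta T cell receptor. With so few vehicle cells outside sub-cluster 0, levels are compared among the 5 sub-clusters with at least 50 takinib cells only, which leaves out the 10 takinib cells of sub-cluster 0.

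All kept takinib cells held 98 Pdcd1 and 413 Ctla4 counts, of which T-like cells gave 57 and 230. Among the takinib T-like cells both genes were concentrated in the small Il17a-led sub-cluster. It gave 43 of the 57 T-like Pdcd1 counts (75.4%) and 138 of the 230 T-like Ctla4 counts (60.0%). The median depth of these cells was 3077 UMIs, against 1676 for takinib T-like cells. Ctla4 stood at 622 CPM [522, 735] there, at 237 CPM [174, 314] in the Foxp3-containing sub-cluster, and at 24.6, 24.4 and 7.68 CPM in sub-clusters 3, 4 and 1. Among these 5 sub-clusters the intervals of the 2 highest do not meet. The 10 takinib cells of sub-cluster 0 had Ctla4 at 314 CPM [143, 595] from 9 counts. Pdcd1 stood at 194 CPM [140, 261] in the Il17a-led cells and 49.3 CPM in the Foxp3-containing cells, and no Pdcd1 UMI was found in sub-clusters 3 and 4. In the same cells Il17a was at 5606 CPM and Trdc at 924 CPM, and no UMI of Cd4 or Cd8a was found. Havcr2 was also highest there, at 104 CPM [65.7, 156] and 23 of 44 counts (52.3%), against 20.6 CPM in sub-cluster 4 and 14.8 CPM in the Foxp3-containing cells.

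Lag3, Tigit and Tox were not highest in the Il17a-led cells. No Lag3 UMI was found there, and Lag3 was at 15.4 CPM in the Gzma-led (6 counts), 9.86 CPM in the Foxp3-containing (2 counts) and 6.46 CPM in the Ly6c1-led cells (5 counts). The Lag3 intervals of these sub-clusters overlapped, so their order is not settled. Tigit was at 59.2 CPM in the Foxp3-containing and 46.1 CPM in the Gzma-led cells, and at 18.0 and 7.76 CPM in the Il17a-led and Ly6c1-led cells. Tox ranged from 16.9 CPM in sub-cluster 4 to 54.2 CPM in the Foxp3-containing cells. Cd274 and Cd80 counts among takinib T-like cells came mostly from sub-cluster 4, the one led by myeloid genes, with 108 of 167 Cd274 counts (64.7%) and 21 of 23 Cd80 counts (91.3%). The median depth there was 2639 UMIs, and whether these cells are doublets or carry free myeloid RNA was not tested.

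**Figure D3:**
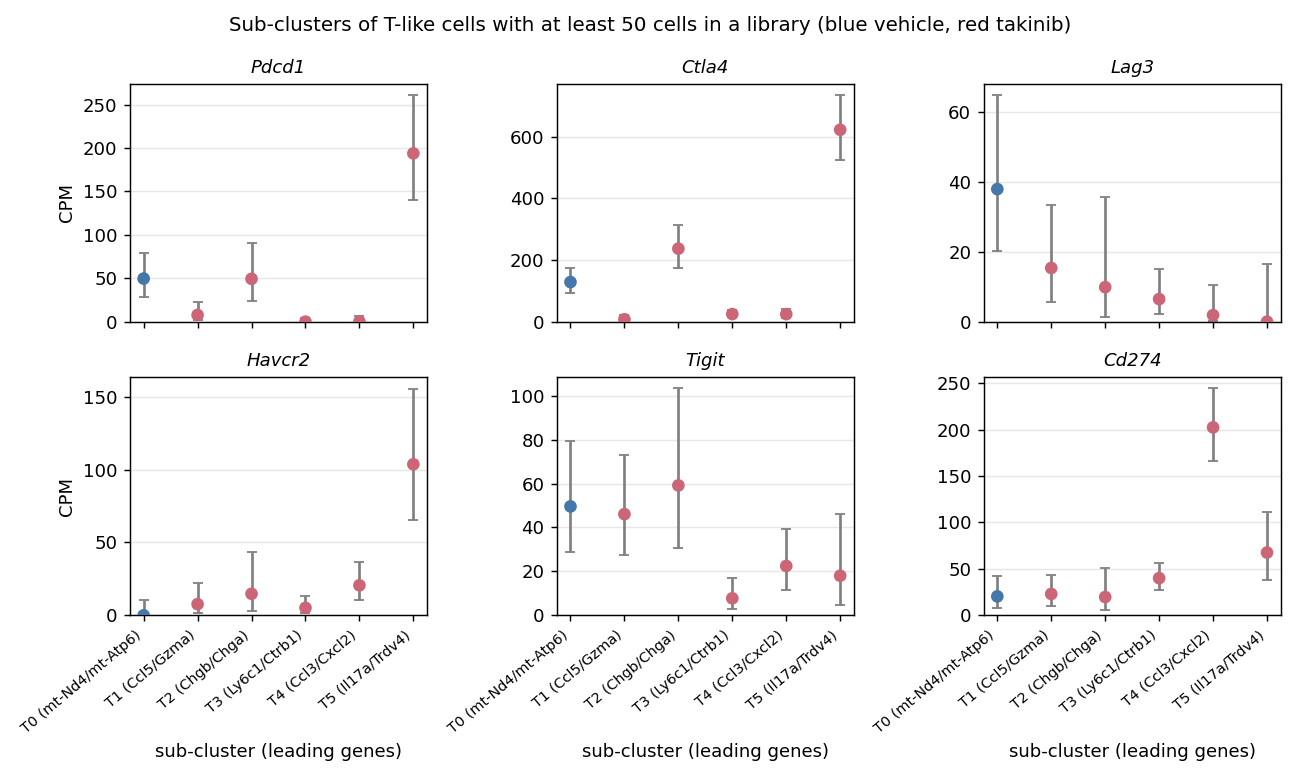
Level in CPM of the 5 receptors and Cd274 in the T-like sub-clusters T0 to T5 (1 panel per gene), shown where a library had at least 50 cells, with vehicle in blue, takinib in red and exact 95% counting intervals as bars. Ctla4 reaches 622 CPM and Pdcd1 194 CPM in sub-cluster 5, the 63 cells led by Il17a.

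Because the Il17a-led cells weighed on the sums, the class was compared again without every cell that held a UMI of Il17a, Trdc or Tcrg-C1, which were 8 of 220 vehicle cells (3.64%) and 93 of 1030 takinib cells (9.03%). Pdcd1 then stood at 50.0 CPM in vehicle and 6.99 CPM in takinib, a log2 ratio of −1.82 in place of −0.66. Ctla4 stood at 129 and 46.8 CPM, a log2 ratio of −1.30 in place of −0.19. Lag3 and Tox stayed lower in takinib, with log2 ratios of −1.27 and −1.24, and Havcr2 was at 10.2 CPM in takinib with none in vehicle. Tigit was at 50.0 and 26.9 CPM, a log2 ratio of −0.70. This comparison was chosen after the sub-clusters had been seen.

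Splitting T-like cells by lineage genes gave small groups. Among Foxp3-positive cells, 16 in vehicle and 21 in takinib, Ctla4 was at 582 and 374 CPM, a ratio of 0.642 [0.340, 1.22], and these were the highest Ctla4 levels of the 4 lineage groups in both libraries. Foxp3 marks regulatory T cells, in which CTLA-4 is known to be constitutive. Lag3 in these cells was at 146 and 15.6 CPM from 5 counts and 1 count (0.107 [0.00226, 0.956]) and Tigit at 233 and 31.1 CPM from 8 and 2 counts (0.134 [0.0138, 0.670]). In CD8 cells, 38 in vehicle and 414 in takinib, Tox was at 95.1 and 21.2 CPM from 6 and 19 counts, a ratio of 0.223 [0.0856, 0.682]. A lower Tox level in takinib, beyond counting error, appeared in CD8 cells and also in the cells left after the CD4, CD8 and Foxp3 groups were taken out (91.3 and 33.1 CPM, 0.362 [0.20, 0.680]). In CD4 cells Tox was at 48.7 and 82.5 CPM, a ratio of 1.69 [0.447, 9.45], and in Foxp3-positive cells at 175 and 93.4 CPM, 0.535 [0.143, 2.00]. Ctla4 was higher in takinib in the cells left over, at 91.3 and 167 CPM, a ratio of 1.83 [1.13, 3.16]. In CD4 cells Ctla4 was at 97.5 and 150 CPM (1.54 [0.596, 4.68]). CD8 cells had no Ctla4 UMI in vehicle and 10.0 CPM in takinib.

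Few T-like cells carried UMIs of several receptors. In takinib 80.4% of T-like cells had no UMI of the 6 genes, with 71.4% in vehicle, and the median depth of takinib cells was 1605.5 UMIs among those with none and 4122.5 UMIs among those with 4 of the genes. Pdcd1 and Ctla4 were found together in 31 takinib cells, where 40 had Pdcd1, 100 had Ctla4 and 3.88 would hold both if the 2 were independent. Pdcd1 and Havcr2 shared 13 cells against 1.4, and Ctla4 and Havcr2 shared 15 against 3.50. In vehicle Ctla4 and Tigit shared 7 cells against 1.36. Deeper cells hold more UMIs of every gene, so these counts describe cells that differ in depth.

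Outside T-like cells, Lag3 showed its largest number of counts in vehicle macrophage-like cells. It was at 13.9 CPM [12.3, 15.5] in vehicle (296 counts) and 0.667 CPM in takinib (33 counts), a ratio of 0.0481 [0.0325, 0.0690]. The vehicle counts came mostly from the macrophage-like cluster led by H2-Ab1, an MHC class II gene, with 268 counts and 21.7 CPM, and that cluster had 15 counts and 6.84 CPM in takinib. Within it the ratio was 0.315 [0.174, 0.528], nearer to 1 than in the class as a whole, and the cluster held 2819 vehicle and 358 takinib cells. Vehicle macrophage-like cells with Xist only had Lag3 at 4.15 CPM [2.07, 7.43] and those with Y-linked UMIs only at 15.1 CPM [12.3, 18.3], and with the former alone as the vehicle group the log2 ratio was −0.41 in place of −1.16. The former lay mostly in the cluster led by Atp6v0d2 and Lpl (341 of 556 cells) and the latter mostly in the H2-Ab1-led cluster (865 of 1357), and within the H2-Ab1-led cluster Lag3 was at 11.8 CPM [5.10, 23.3] and 22.4 CPM [18.2, 27.3], intervals that overlap. Sex and mouse cannot be told apart here.

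Havcr2, which myeloid cells also express, was highest in dendritic-like cells (in vehicle with an interval that overlapped that of macrophage-like cells), at 26.0 CPM in vehicle (21 counts) and 76.6 CPM in takinib (51 counts). The ratio of 2.95 [1.74, 5.16] was past 2-fold (log2 ratio 1.27), and the log2 ratio was 0.92 when cells of at least 500 UMIs were included and 0.95 at a Leiden resolution of 2. In the same cells 9 neutrophil markers stood at 182 and 5238 CPM, with none and 1 of them at 0. The makeup of the class also differed, with the type 1 dendritic cell genes Clec9a at 19.8 and 82.6 CPM and Xcr1 at 13.6 and 84.1 CPM, and Cd209a at 105 and 46.6 CPM, and its part in the Havcr2 difference was not tested. In macrophage-like cells Havcr2 was at 20.7 and 25 CPM and not past 2-fold. Within macrophage-like clusters the difference was larger in the cluster led by Ccl8, Apoe and C1q genes, 9.73 and 26.7 CPM (2.75 [1.98, 3.88]), and in that led by Atp6v0d2, Lpl and Chil3, 11.5 and 22.6 CPM (1.96 [1.44, 2.73]). In the H2-Ab1-led cluster it was 28.2 and 34.6 CPM.

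Tox and Tigit were also counted in epithelial-like cells. Tox was at 17.5 CPM in vehicle (136 counts) and 29.3 CPM in takinib (334 counts), a ratio of 1.67 [1.37, 2.06] that was not past 2-fold with 10 CPM added. In the cluster led by Cdkn2a, Hmga2 and Krt7 it was at 11.5 and 30.4 CPM, a ratio of 2.65 [2.05, 3.45]. Tigit was at 3.21 CPM (25 counts) and 6.31 CPM (72 counts), a ratio of 1.96 [1.23, 3.23]. In the Muc2-led cluster Tox went the other way, at 22.9 CPM from 14 counts and 8.44 CPM from 4 counts, with a ratio of 0.369 [0.0885, 1.18] whose interval includes no difference. As a class, epithelial-like cells thus had a Tox ratio above 1 and T-like cells a ratio below 1, and the difference between the classes was not tested. An unnamed cluster led by the gastric gene Tff2, which was closest to epithelial cells, had Tox at 31.1 and 32.5 CPM.

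Cd274, the gene of PD-L1, was the ligand with the widest difference. The PD-L1 and PD-L2 genes are neighbours on the plus strand of chromosome 19, Cd274 at chr19:29367455-29388095 and Pdcd1lg2 at chr19:29410919-29471161, with 22823 bases and no annotated gene between them. Lgals9 lies at chr11:78962974-78984946 on the minus strand. The 250 bases before the annotated start of each are given because Cd274 and Lgals9 were the 2 members past 2-fold in epithelial-like cells, and Pdcd1lg2 is the neighbour that went the other way in macrophage-like cells. They are from RefSeq on GRCm38.p6, written 5′ to 3′ on the gene's strand, at chr19:29367188-29367437, chr19:29410669-29410918 and chr11:78984925-78985174.
Cd274: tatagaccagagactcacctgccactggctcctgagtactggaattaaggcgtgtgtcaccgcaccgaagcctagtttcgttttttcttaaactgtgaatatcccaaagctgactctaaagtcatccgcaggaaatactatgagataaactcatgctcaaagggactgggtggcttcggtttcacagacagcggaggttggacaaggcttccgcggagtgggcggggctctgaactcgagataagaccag
Pdcd1lg2: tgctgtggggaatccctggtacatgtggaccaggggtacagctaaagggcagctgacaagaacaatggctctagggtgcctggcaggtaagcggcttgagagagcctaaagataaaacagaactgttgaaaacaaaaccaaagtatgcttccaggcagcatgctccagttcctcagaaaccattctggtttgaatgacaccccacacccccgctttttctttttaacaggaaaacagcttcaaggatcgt
Lgals9: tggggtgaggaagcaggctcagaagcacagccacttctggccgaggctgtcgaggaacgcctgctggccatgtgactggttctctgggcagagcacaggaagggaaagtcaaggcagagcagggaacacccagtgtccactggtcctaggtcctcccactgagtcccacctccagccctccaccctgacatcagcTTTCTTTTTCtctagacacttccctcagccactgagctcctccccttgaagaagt
Capitals mark a match to the interferon-stimulated response element (GAAA, 2 bases of any kind, GAAA), here on the opposite strand, from 55 to 46 bases before the Lgals9 start. A second match began 16 bases after the start. Promoter entries were found for 8 of the 10 genes, and the windows of 300 bases (250 before and 50 after the start) were searched on both strands for 4 motifs. Of 32851 promoters of that length 3.44% held that motif, 1.47% the NF-kB motif (GGGA, any 2 bases, TTCC), 7.81% the AP-1 motif TGANTCA and 8.30% the STAT motif TTCNNNGAA. Cd80 and Havcr2 each had 1 AP-1 match, and the windows of Cd274, Pdcd1lg2, Pdcd1, Ctla4 and Tigit held none of the 4 strings. These are matches of letters only.

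Across all kept cells Cd274 was at 56.3 CPM in vehicle and 174 CPM in takinib. Macrophage-like cells gave 89.3% of the vehicle counts, and neutrophil-like and macrophage-like cells gave 53.8% and 35.4% of the takinib counts. Among classes with at least 50 vehicle cells, the order was macrophage-like at 98.9 CPM, then dendritic-like at 64.3 CPM, then T-like, endothelial-like, B-like and fibroblast-like cells between 11.4 and 19.7 CPM, whose neighbours in that order had overlapping intervals. Epithelial-like cells were lowest of the compared classes at 3.73 CPM. In takinib neutrophil-like cells were highest at 339.6 CPM [333, 346], followed by macrophage-like and dendritic-like cells at 149 and 144 CPM, whose intervals overlapped.

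The ratio was largest in epithelial-like cells, where Cd274 went from 29 counts and 3.73 CPM to 631 counts and 55.3 CPM, a ratio of 14.8 [10.2, 22.3]. It was higher in both epithelial-like clusters with at least 50 cells in each library: 3.21 and 42.2 CPM in the cluster led by Cdkn2a, Hmga2 and Krt7 (13.1 [8.49, 21.4]) and 4.90 and 169 CPM in the cluster led by the goblet cell genes Spink4 and Muc2 (34.5 [11.4, 171]). The cluster led by Mir100hg and Onecut2 had 260 vehicle and 30 takinib cells and was not compared. Another cluster, led by the gastric genes Gkn2, Tff1 and Muc5ac, had 217 cells, all from takinib, and Cd274 at 234 CPM. In the same class 9 neutrophil markers were at 114 CPM in vehicle and 13049 CPM in takinib. Takinib erythroid-like cells had Cd274 at 56.6 CPM [49.2, 64.6] beside S100a8 and S100a9 at 11645 CPM, a level near the 55.3 CPM of epithelial-like cells. When each cell was thinned to 1000 UMIs, 8.02% of takinib erythroid-like cells and 9.30% of takinib epithelial-like cells had a Cd274 UMI, against 0.257% of vehicle epithelial-like cells.

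The level of Cd274 that remained in takinib epithelial-like cells depended on how neutrophil RNA was treated. Subtracting the mean takinib neutrophil profile in proportion to S100a8 and S100a9 left a log2 ratio of 1.43 in place of 2.25. Subtracting the profile of the neutrophil cluster with the most Ccl4, which is also the one richest in Cd274, left 5.67 CPM and a log2 ratio of 0.19. Keeping only the takinib cells at or under the median share of S100a8 and S100a9 left 16.8 CPM and a log2 ratio of 0.96. The last 2 values are under 2-fold, and both settings were chosen after seeing the data.

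In the other classes Cd274 was higher in takinib by smaller ratios. It was at 64.3 and 144 CPM in dendritic-like cells (2.24 [1.58, 3.20]), at 19.7 and 77.6 CPM in T-like cells (3.95 [1.87, 9.97]) and at 11.4 and 34.6 CPM in fibroblast-like cells (3.04 [2.04, 4.68]), all past 2-fold. Fibroblast-like cells had neutrophil markers at 128 and 8703 CPM, and with the all-neutrophil profile subtracted the log2 ratio there was 0.23 in place of 1.06. It was −0.92 with the Ccl4-richest profile subtracted and −0.22 in takinib cells at or under the median S100a8 and S100a9 share. In T-like cells it was 0.40 under the last of these settings, in place of 1.56, −1.68 with cells of at least 2000 UMIs and −0.010 with cells of at least 500 UMIs. The direction in fibroblast-like and T-like cells therefore depended on these settings. In dendritic-like cells it was 0.98 with the all-neutrophil profile subtracted, in place of 1.05. B-like cells were at 12.8 and 29.5 CPM, a log2 ratio of 0.79.

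**Figure D4:**
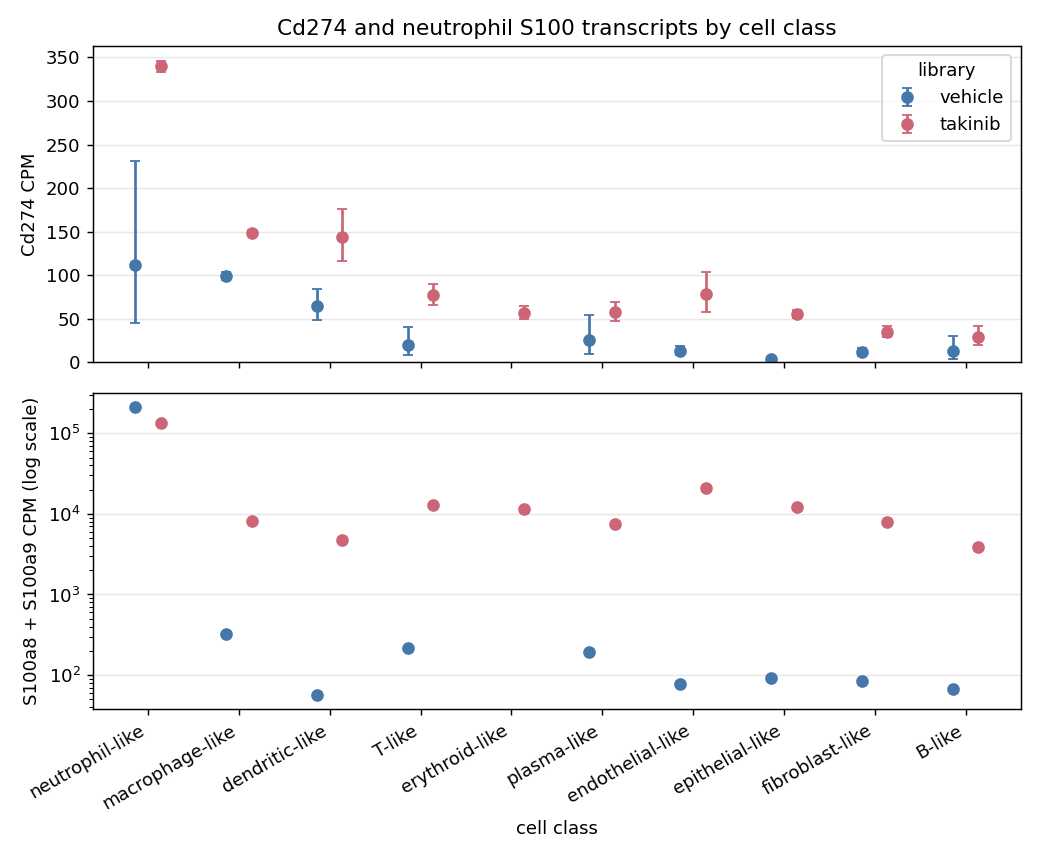
Cd274 level in CPM with exact 95% counting intervals (upper panel, linear axis) and the summed level of S100a8 and S100a9 in CPM (lower panel, log axis) in each cell class of the vehicle and takinib libraries. Takinib neutrophil-like cells are highest at 339.6 CPM, and takinib erythroid-like cells at 56.6 CPM are near takinib epithelial-like cells at 55.3 CPM.

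In macrophage-like cells as a class Cd274 was at 98.9 CPM (2111 counts) and 149 CPM (7356 counts), a ratio of 1.5 [1.43, 1.58]. The clusters did not move together. Cd274 was at 86.7 and 116 CPM in the H2-Ab1-led cluster (1.34 [1.17, 1.54]), at 108 and 84.8 CPM in the cluster led by Ccl8 and Apoe (0.787 [0.696, 0.890]), and at 126 and 113 CPM in the cluster led by Atp6v0d2 and Lpl. The higher class total went with 2 clusters almost wholly of the takinib library, one led by U90926 and Saa3 (15 vehicle and 3046 takinib cells) at 177 CPM and one led by H2-M2 and Ccl5 (5 and 1107 cells) at 186 CPM.

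Pdcd1lg2, the gene of PD-L2, was lower in takinib macrophage-like cells, at 26.2 CPM in vehicle (560 counts) and 7.41 CPM in takinib (367 counts), a ratio of 0.283 [0.247, 0.323]. In the H2-Ab1-led cluster it was at 35.7 and 20.1 CPM (0.562 [0.403, 0.767]) and in the Ccl8-led and Apoe-led cluster at 17.8 and 3.70 CPM (0.208 [0.125, 0.333]). In the cluster led by Atp6v0d2 and Lpl it was 8.32 and 8.65 CPM. With vehicle cells of female origin alone the log2 ratio of the class was −0.71 in place of −1.06. Within the H2-Ab1-led cluster Pdcd1lg2 was at 38.4 CPM in Xist-only and 34.1 CPM in Y-only vehicle cells, so the lower class level of the Xist-only cells was not seen inside that cluster. The 2 clusters of takinib cells had 3.89 and 12.0 CPM. Pdcd1lg2 and its chromosomal neighbour Cd274 therefore had ratios on opposite sides of 1 in the H2-Ab1-led cluster and on the same side in the Ccl8-led cluster. In dendritic-like cells, where Pdcd1lg2 was highest in both libraries, it was at 47.0 and 31.5 CPM and not past 2-fold.

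**Figure D5:**
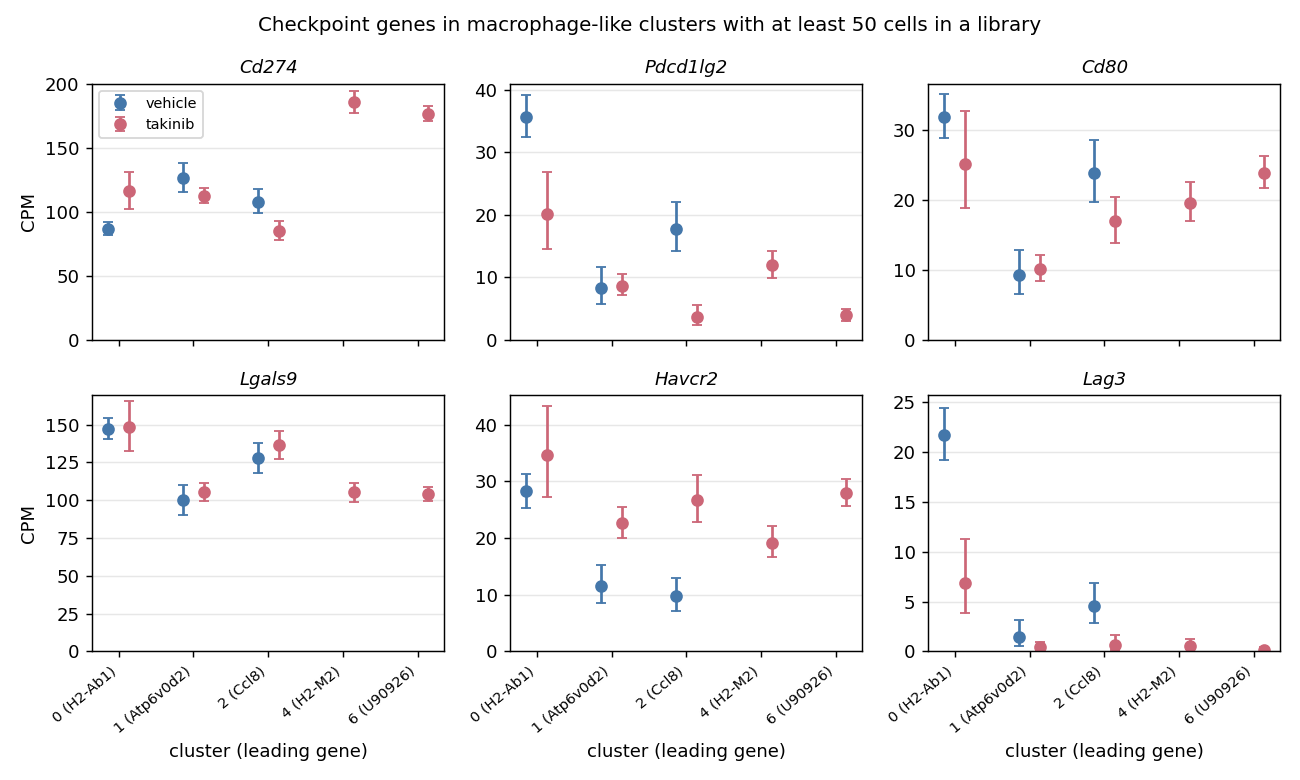
Level in CPM of Lag3, Havcr2 and the 4 ligands in the macrophage-like clusters of the vehicle and takinib libraries, with exact 95% counting intervals. Pdcd1lg2 and Lag3 are highest in the vehicle cells of the H2-Ab1-led cluster (35.7 and 21.7 CPM), and Cd274 is highest in the 2 clusters made almost wholly of takinib cells.

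Cd80 (chr16:38455561-38496335, plus strand), a ligand shared by CD28 and CTLA-4, was not past 2-fold in any compared class. It was at 73.0 and 51.1 CPM in dendritic-like cells, the highest of the compared classes in both libraries, and at 25.6 and 18.8 CPM in macrophage-like cells (0.734, 547 and 931 counts). In epithelial-like cells it was at 1.16 CPM from 9 counts and 6.84 CPM from 78 counts, a ratio of 5.91 [2.96, 13.4] at a level where 10 added CPM left a log2 ratio of 0.59. With the Ccl4-richest neutrophil profile subtracted, a setting chosen after seeing the data, that log2 ratio was −0.10. Over all cells macrophage-like cells gave 77.8% of vehicle Cd80 counts, and neutrophil-like cells gave 57.3% of those in takinib.

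Lgals9, the gene of galectin-9, differed in direction by class. In epithelial-like cells it was at 56.3 CPM (438 counts) and 139.7 CPM (1593 counts), a ratio of 2.48 [2.23, 2.76] and past 2-fold. It was higher in takinib in the Cdkn2a-led cluster, at 56.0 and 135 CPM, and in the Muc2-led cluster, at 75.1 and 135 CPM, and the Gkn2-led cluster of takinib cells was at 259 CPM. In macrophage-like cells it was at 134 and 111 CPM (0.828 [0.791, 0.866]) and in fibroblast-like cells at 143 and 98.9 CPM (0.694 [0.598, 0.804]), neither past 2-fold. Its log2 ratio in epithelial-like cells was 1.14 in takinib cells at or under the median S100a8 and S100a9 share and 1.17 in the main comparison. The Ccl4-richest neutrophil profile holds less Lgals9 (56.7 CPM) than takinib epithelial-like cells, so subtracting it could not lower this value. With vehicle cells of female origin alone it was 0.68, since these had Lgals9 at 83.7 CPM and those of male origin at 49.5 CPM. Takinib erythroid-like cells had Lgals9 at 216 CPM [201, 231], above takinib epithelial-like cells. In epithelial-like cells 7 erythroid markers stood at 36.1 CPM in vehicle and 537 CPM in takinib, and the part of erythroid RNA in the Lgals9 difference was not tested. Over the 4 ligands the median log2 ratio was 0.88 in epithelial-like cells, where all genes had −0.07, and −0.28 in macrophage-like cells, where all genes had −0.01.

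Other genes of the checkpoint pathway were taken from lists of co-stimulatory receptors, other inhibitory receptors, other ligands, exhaustion and activation factors, the interferon-gamma axis, and the adenosine and tryptophan enzymes. Of 274 pairs of a listed gene and a class with 10 counts, 31 were past 2-fold, 20 higher and 11 lower in takinib, where the share of all genes past 2-fold was between 2.29% and 6.97% by class. Entpd1, which is in both the exhaustion and the adenosine list, is counted under each. In T-like cells 3 of the 8 co-stimulatory receptors were lower and none higher, where 2.73% of all genes were lower and 4.02% higher, and the list's median log2 ratio was −0.78 against −0.05 for all genes. They were Tnfrsf4, the gene of OX40, at 213 and 41.8 CPM (log2 ratio −2.11), Tnfrsf18, the gene of GITR, at 219 and 61.8 CPM (−1.67), and Tnfrsf9, the gene of 4-1BB, at 143 and 60.0 CPM (−1.13). Among the 12 exhaustion and activation factors 2 were higher, the activation-induced nuclear receptor Nr4a2, with no UMI in vehicle and 44.2 CPM in takinib, and Batf, at 22.5 and 75.8 CPM (1.4). Of 13 other inhibitory receptors 1 was higher, Pilra, at 5.62 and 32.1 CPM (1.43), and 1 was lower. None of the 7 other ligands with counts was past 2-fold in T-like cells. In the same class 9 neutrophil markers stood at 286 and 13589 CPM, and 183 of 1030 takinib cells lay in the sub-cluster led by Ccl3, Cxcl2 and S100a8. The part of myeloid RNA in the Nr4a2, Batf and Pilra values was not tested.

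In epithelial-like cells Nr4a1, an immediate early gene, was at 13.2 and 73.2 CPM (1.84), Arg1, an arginine-degrading enzyme, at 55.7 and 151 CPM (1.29), and Vsir, the gene of VISTA, at 6.94 and 25.1 CPM (1.05). Nt5e, the gene of CD73, which makes adenosine, was lower at 214 and 44.5 CPM (−2.04), as were Nectin3, of the family that TIGIT binds, at 50.4 and 17.3 CPM (−1.15) and Cd276, the gene of B7-H3, at 59.8 and 24.5 CPM (−1.02). In macrophage-like cells Nr4a2 alone of the listed genes was past 2-fold, at 10.9 and 40.3 CPM (1.27), and Cd47 was at 206 and 401 CPM (0.93). Cd47, the ligand of the phagocytosis checkpoint SIRPA, was past 2-fold in fibroblast-like cells at 201 and 430 CPM (1.06). In dendritic-like cells Lair1, a collagen receptor that inhibits, was at 35.9 and 94.6 CPM (1.19) and Nr4a1 at 60.6 and 132 CPM (1.01), while Prdm1 was lower at 24.7 and 3.0 CPM (−1.42) and Irf4 at 47.0 and 18.0 CPM (−1.02). In B-like cells 4 of the 8 exhaustion and activation factors with counts were higher and none lower, where 3.89% of all genes were higher and 2.78% lower. The highest log2 ratio there was that of Nr4a1, at 20.4 and 95.5 CPM (1.79).

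For each member the genes with the most similar pattern were found from Pearson's r of log2(CPM + 10) over the 12 pairs of a compared class and a library, as a description. Pdcd1 was most like Cd96 (0.995) and Cd27 (0.990), and Ctla4 most like Cd3g (0.996) and Cd27 (0.995), which are genes of T cells. Havcr2 was most like Cd244a (0.958) and Myd88 (0.943), and Cd274 most like Tlr13 (0.979) and Lrrc25 (0.977). Pdcd1lg2 followed Prex1 (0.949) and Twf2 (0.947), and Cd80 followed Rasgrp4 (0.958) and Clec10a (0.956). Tigit was most like Gstp3 (0.968) and Gata3 (0.960), and Tox most like Ago2 (0.922) and Pdpk1 (0.922). Lower values were found for Lag3, with Igflr1 (0.893) and Akr1b3 (0.883), and for Lgals9, with Hibadh (0.808) and Mgst1 (0.799). The 12 points share 2 libraries.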

How the data were processed

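The deposited values were raw UMI counts per gene and cell barcode, written per the file headers by Cell Ranger 4 for the vehicle library and 6.1.1 for the takinib library. The submitters' processing notes name Cell Ranger 2.1.1, STAR 2.0.4b, featureCounts 1.45, Subread, bcl2fastq and mm10, with no role or order, so how the authors' deposited counts were made differs between the sources. The vehicle table held 704261 barcodes and 80850334 UMIs and was unfiltered, and the takinib table held 34158 barcodes and 139292875 UMIs, none under 500 UMIs.

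Cells with at least 1000 UMIs, 500 genes and at most 20% mitochondrial UMIs were kept. Scrublet marked 314 vehicle cells (3.18%) as doublets, which were removed. It marked 1 takinib cell (0.00373%), so the 6% with the highest score (1607 cells) were removed there. Joint clustering of the cells used scanpy 1.11.5 and igraph 0.11.9, with 2000 variable genes that left out the 10 members, 30 principal components, graphs of 15 nearest neighbours and the Leiden method at resolution 1. A cluster was named from marker lists when at least 3 markers were detected and the next class scored under 0.75 of the best, and otherwise left unnamed. The 3 unnamed clusters all had a close second class. T-like cells were clustered again (1000 genes, 15 components, resolution 0.6).

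Counts were summed per class and library and divided by the class total to give CPM. Ratios used 10 CPM added to each library, 2-fold as the threshold and genes with at least 10 counts in the class. Exact Poisson and conditional binomial intervals at 95% cover counting error only, and no p-value was computed because each treatment has 1 library. The ratio and its interval were tested on Poisson counts simulated from the T-like and macrophage-like sums. Filtering, clustering, naming and the 2-fold rule with 10 CPM added were not tested in that way. Classes differed in median depth, from 1359.5 to 4786.5 UMIs in vehicle and from 1345 to 7689.5 UMIs in takinib among those compared.

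All 10 members are named. Of the pathway lists, the named genes are among the 3 highest and 3 lowest log2 ratios per class with at least 20 counts in a library, and the similar genes are the 2 with the highest correlation among genes reaching 50 CPM. The members, lists and rules were chosen with earlier results of these data known. The 17 alternatives listed at the outset and 4 added after seeing the data are reported in the closing section.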

Additional observations from a re-analysis of the deposited data

Results flagged for a closer look

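In 3 cases a member had ratios on opposite sides of 1 in 2 classes, with both counting intervals away from 1 and at least 1 value past 2-fold, and none of these differences between classes was tested. Tox had a log2 ratio of 0.52 in epithelial-like cells and −1.26 in T-like cells. Lgals9 had 1.17 in epithelial-like cells and −0.25 in macrophage-like cells. Against fibroblast-like cells the same pair of values for Lgals9 was 1.17 and −0.49.

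Other values stood out in classes that had too few cells in a library, or no name, and so were not compared. Cd274 was at 340 CPM in takinib neutrophil-like cells and at 112 CPM in the 24 vehicle cells of that class. Ctla4 was at 40.0 CPM [31.6, 50.0] in 199 takinib plasma-like cells from 77 counts, with no count in 38 vehicle cells. Cd274 was at 78.5 CPM in 88 takinib endothelial-like cells and 13.0 CPM in 671 vehicle cells, beside S100a8 and S100a9 at 20711 and 76.6 CPM, whose part in the difference was not tested. In unnamed clusters Cd274 was at 68.2 CPM in takinib and 18.9 CPM in vehicle, and Lgals9 at 195 and 136 CPM.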

How the results depend on the processing

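No paired analysis was possible because each treatment has 1 library, and no library could be left out for the same reason. Of 46 pairs of a member and a class, 11 were past 2-fold. The number was 17 with cells of at least 2000 UMIs and 1000 genes, 5 with a mitochondrial limit of 10%, 3 with classes assigned from marker UMIs without clusters and 0 with 50 CPM added. It was 7 with the Ccl4-richest neutrophil profile subtracted and 7 with takinib cells at or under the median S100a8 and S100a9 share, both chosen after seeing the data. Under the other settings run it lay between 8 and 16. These numbers are not all out of the same 46 pairs, because classes that fell under the cell limit dropped out. Pairs in dendritic-like cells were recomputed under 15 settings and pairs in macrophage-like cells under 20. The limit was lower with cells of at least 2000 UMIs and with vehicle cells of female origin, where 36 and 19 vehicle T-like cells were kept. The numbers are therefore not directly comparable with 11 of 46. The share of cells with a UMI was higher in takinib in 46 of 60 pairs, and in 28 after thinning to 1000 UMIs. Of 204 values recomputed for the 11 pairs, 199 kept their direction and 164 also stayed past 2-fold. Adding 1 or 50 CPM could not change a direction, and settings in which a class fell under the cell limit are not among the 204. The 5 that changed direction were Lag3 in T-like cells with vehicle cells of female origin (0.72, with no count in 19 vehicle cells), Cd274 in T-like cells with at least 2000 UMIs (−1.68, with 36 vehicle cells) and with at least 500 UMIs (−0.010), and Cd274 in fibroblast-like cells with the Ccl4-richest profile subtracted (−0.92) and with the low S100a8 and S100a9 share (−0.22). The cause was not tested. Pdcd1 in T-like cells, −0.66 in the main comparison, was 1.79 with at least 2000 UMIs, where 36 vehicle cells held no count. Low counts limit all 10 members in vehicle T-like cells, where each rested on at most 44 counts.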

Other observations

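Takinib neutrophil-like cells, with no vehicle class to compare, formed 4 clusters in which the ligands had different orders. Cd274 was at 494 CPM [483, 504] in the 5670 cells led by the chemokine genes Ccl4, Ccl3 and Cxcl2, at 327 CPM in 3471 cells led by Lst1 and Lcn2, at 118 CPM in 2519 cells led by Retnlg and Cxcr2, and at 58.2 CPM in 698 cells led by the granule genes Camp, Ngp and Elane. Lgals9 had nearly the reverse order, with 56.7, 42.9, 126 and 105 CPM. Cd80 was at 63.6 and 63.8 CPM in the Ccl4-led and Retnlg-led clusters and at 34.9 and 13.3 CPM in the Lst1-led and Camp-led clusters. Pdcd1lg2 was at 21.3, 21.1, 5.88 and 3.87 CPM and Havcr2 at 21.9, 28.4, 17 and 4.24 CPM in the order first given.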
